A study of Mus musculus with 4 samples.

Results

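The genes described here are the translation initiation factors and elongation factors of mouse T cells, taken as every protein-coding gene whose symbol begins with Eif1 to Eif6 or with Eef1 or Eef2, without the Eif2ak kinases. Of the 23480 gene identifiers in each library, 65 met that rule, and 60 of them had enough reads to be tested. The rule itself uses gene names and no measured value. RNA was sequenced from T cells cultured under the Th9 condition (2 libraries) and under the Th9+TLA1 condition (2 libraries). The sample labels write TLA1 where the series title writes TL1A, a cytokine of the TNF superfamily, and both are read here as the same cytokine. Strain, age, genotype, dose and culture time are not stated in the labels. Interleukin 9 is the cytokine that gives Th9 helper cells their name. No label states whether the replicates of a group had different source animals or cultures. Every p-value is therefore set by library-to-library spread, part of which may be technical. In limma the spread of a gene is moderated toward that of genes of like level.

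A protein is begun when the initiator tRNA, carried by the factor eIF2, joins the small ribosomal subunit together with eIF1, eIF1A, eIF3 and eIF5. The mRNA is brought in by the cap complex of eIF4E, the scaffold eIF4G and the helicase eIF4A, and the large subunit joins with the help of eIF5B. Each amino acid is then delivered by eEF1A, and eEF2 moves the ribosome along by a codon. Activated T cells grow and divide quickly and are known for high rates of protein synthesis, which signalling through mTORC1, the MNK kinases and the eIF2 kinases adjusts.

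Reads counted in genes ranged from 2979482 to 4041633 per library, and 3 reads, the most that a value of 0 can hide as far as counting error goes, corresponded to 0.742 to 1.01 CPM, the deposited unit, which scales the reads of each library to the same total. All 10 genes of a T cell marker list were detected and tested, with a summed level of 3305 and 3710.1 CPM in Th9 cells and 4340.0 and 4046 CPM in Th9+TLA1 cells; 1 of them, Cd5, was called higher with TLA1 (log2 fold change 1.13 ± 0.20 SE, limma adjusted p = 0.0199), a call lost without a filter on low counts and without Th9 replicate 1, Th9 replicate 2 or Th9+TLA1 replicate 1 (adjusted p between 0.0595 and 0.120). Of 20 markers of CD8 T, B, myeloid, dendritic, natural killer, erythroid and mast cells, 10 were at 0 in all 4 libraries, among them Ms4a1, Lyz2, Cd14 and Ncr1, and the whole list summed to 20.8 and 26.8 CPM without and 42.0 and 40.9 CPM with TLA1. With TLA1 most of that sum was the B cell gene Cd79b, at 6.19 and 12.9 CPM without TLA1 and 24.2 and 28.6 CPM with it (log2 fold change 1.53 ± 0.47 SE, limma adjusted p = 0.143); its partner gene Cd79a had 4.21 and 0 CPM without TLA1 and 3.36 and 0.649 CPM with it. The CD8 T cell gene Cd8b1 had 6.68 and 13.3 CPM without TLA1 and 9.06 and 10.1 CPM with it, and Cd8a had at most 1.24 CPM. The part of other cells in the results below was not tested. In RNA from a whole culture, fewer cells of a type and less RNA per cell cannot be told apart.

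Translation factors took 2.71% and 3.04% of the reads of Th9 cells and 3.21% and 3.19% of those of Th9+TLA1 cells. The elongation genes alone took 1.21% and 1.61% without TLA1 and 1.82% and 1.81% with it. The cap and helicase genes took 0.490% and 0.429% without TLA1 and 0.387% and 0.372% with it. The higher sum with TLA1 is therefore not a trait of the family as a whole. Comparing the conditions asked which steps of translation differed in transcript level when the cytokine was present. None of the 60 tested factors passed limma's test at an adjusted p under 0.05, where 1.16% of all 10324 tested genes did (120 genes, 93 or 0.901% higher and 27 or 0.262% lower with TLA1; 42 without Th9 replicate 1 and 20 without Th9 replicate 2). None passed in edgeR, DESeq2 or limma voom on the reads recovered from the CPM either. At an unadjusted p under 0.05 there were 8 factors in limma, 7 in edgeR, 8 in DESeq2 and 9 in voom, and the limma count is 13.3% of the factors beside 16.7% of all tested genes (8.54% higher and 8.15% lower). Those 8 were Eif3i, Eif5a2, Eif4ebp1 and Eif3f, the 4 with higher means with TLA1, and Eif4g1, Eif4enif1, Eif4a3 and Eif1ad, with lower means. The median log2 fold change of the factors was 0.039, beside -0.013 for all tested genes.

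Precision for these genes, which in limma rests in part on the spread of other genes of like level, was often enough to bound a change. For 49 of the 60 factors the 95% interval of the fold change, which covers 1 gene at a time, lay within 2-fold in either direction, where 44.2% of all tested genes had so narrow an interval. The deposited CPM of the 2 groups did not overlap for 24 factors, 11 higher and 13 lower with TLA1, which is 40% of the factors beside 48.1% of all tested genes (19.1% higher and 29% lower). After scaling each library by its TMM factor, a correction for composition that the fold changes below include, the groups did not overlap for 29 factors, 20 higher and 9 lower, beside 47.4% of all tested genes (23.7% higher and 23.6% lower). A fitted fold change can therefore lie slightly above the ratio of the printed CPM. On the first scale the share of factors was below that of all genes and on the second it was close to it.

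**Figure D1:**
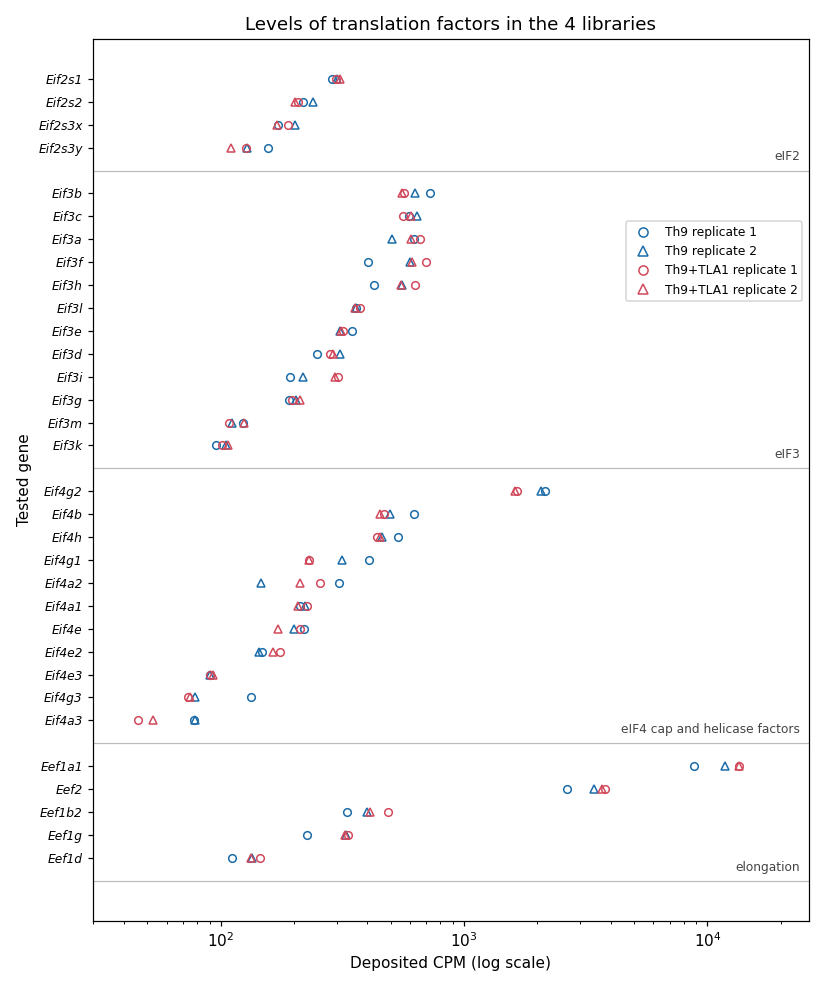
Deposited CPM on a log axis for the tested genes of eIF2, eIF3, the eIF4 cap and helicase factors and the elongation factors, with 1 symbol per library (blue for Th9, red for Th9+TLA1, circles for replicate 1 and triangles for replicate 2). Eef1a1 lies highest, with 8782 to 13520 CPM, and Eif4g2 and Eef2 are the other genes in this plot that stand clear of the rest.

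**Figure D2:**
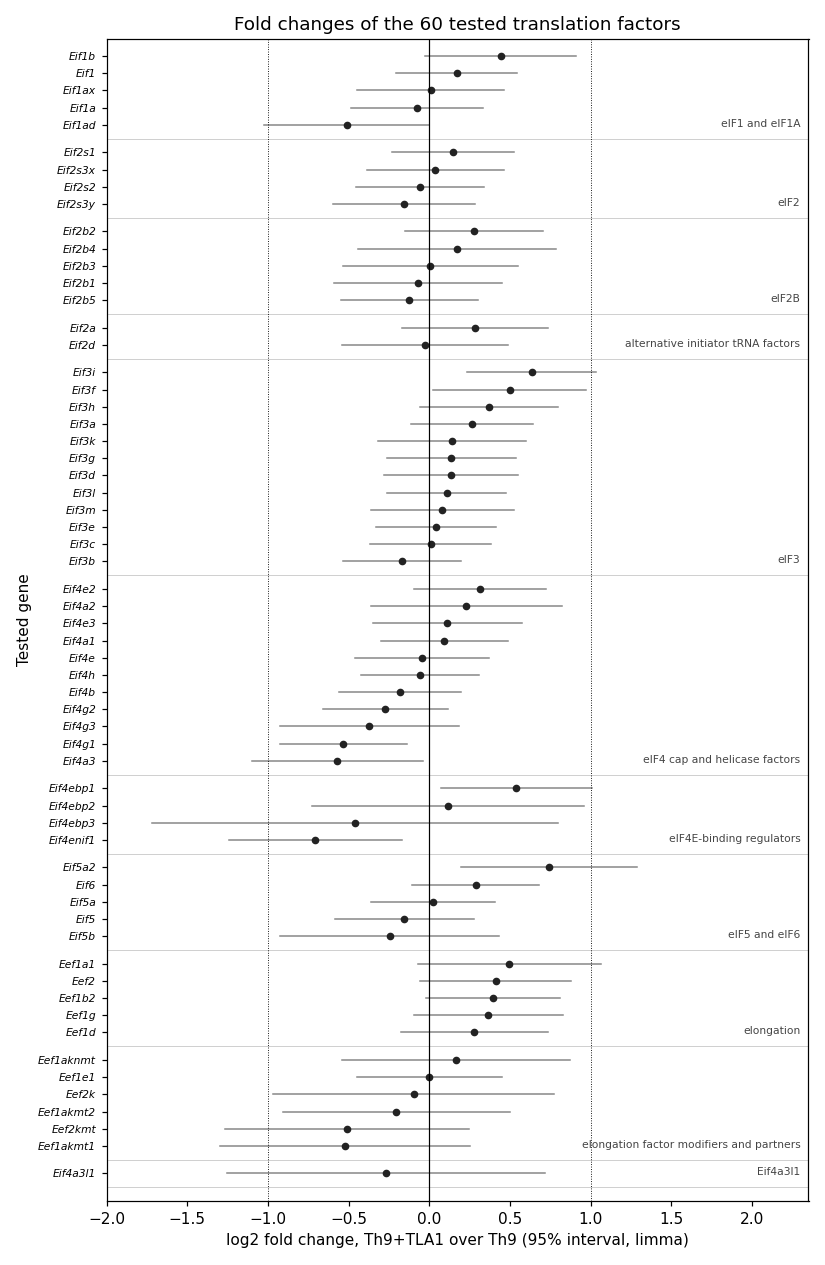
Log2 fold change of each of the 60 tested factors (points) with its 95% interval from limma (lines), grouped by complex, with dotted lines at a 2-fold change. The points lie between -0.71 (Eif4enif1) and 0.74 (Eif5a2), and no factor passed the test after adjustment.

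None of the 5 genes of eIF1, eIF1A and proteins related to them passed the test. Eif1, which encodes the factor that guards start codon choice, had 503 and 459.7 CPM in Th9 cells and 544 and 474 CPM in Th9+TLA1 cells, with overlapping groups (log2 fold change 0.17 ± 0.17 SE, limma adjusted p = 0.677). Its paralogue Eif1b had 93.3 and 77.7 CPM without TLA1 and 116 and 102 CPM with it. The Eif1b groups did not overlap, and the difference did not pass (log2 fold change 0.44 ± 0.22 SE, limma adjusted p = 0.331). Eif1ad, which encodes a protein with an eIF1A domain, had 86.4 and 82.1 CPM without TLA1 and 51.7 and 58.7 CPM with it and was lower in both Th9+TLA1 libraries (log2 fold change -0.51 ± 0.23 SE, limma adjusted p = 0.298). The locus of Eif1ad overlaps that of Banf1, and 15.1% of the 50-base stretches of its transcript also occurred in a transcript of Banf1. Whether reads of Banf1 were counted for Eif1ad was not tested. Eif1a and Eif1ax encode eIF1A, which opens the subunit for scanning; Eif1a had 252 and 235 CPM in Th9 cells and 193 and 243 CPM in Th9+TLA1 cells, and the fitted change of Eif1ax was 0.0070 ± 0.21 (SE).

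The eIF2 complex, which carries the initiator tRNA, showed no subunit gene past the test. Eif2s1 encodes the alpha subunit, whose phosphorylation by the eIF2 kinases slows initiation. It had 286 and 301 CPM in Th9 cells and 298 and 310.3 CPM in Th9+TLA1 cells, and the 95% interval of its log2 fold change ran from -0.23 to 0.52 (log2 fold change 0.15 ± 0.17 SE, limma adjusted p = 0.738). Eif2s2, the beta subunit gene, had 218 and 239 CPM in Th9 cells and 208 and 203 CPM in Th9+TLA1 cells (log2 fold change -0.058 ± 0.18 SE, limma adjusted p = 0.916). The Eif2s2 groups did not overlap in deposited CPM but did after TMM scaling. Over the 4 subunit genes the median log2 fold change was -0.010, and all 4 intervals lay within 2-fold.

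The gamma subunit, which binds GTP and the tRNA, has a gene on each mouse sex chromosome, Eif2s3x (Entrez 26905, chrX:94188709-94212651 of mm10) and Eif2s3y (Entrez 26908, chrY:1010562-1049134). The first 90 bases of both coding sequences, from the GENCODE M21 transcripts of GRCm38, are shown because they let reads be told apart between the copies; capitals mark the 16 bases that differ.
Eif2s3x: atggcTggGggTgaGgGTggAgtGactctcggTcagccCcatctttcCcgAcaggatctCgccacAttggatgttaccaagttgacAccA
Eif2s3y: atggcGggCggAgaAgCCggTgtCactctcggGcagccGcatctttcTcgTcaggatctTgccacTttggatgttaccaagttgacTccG
Over the whole 1419 bases of coding sequence the copies differed at 194 positions and were 86.3% identical. No stretch of 50 bases of the Y-linked transcript occurred in a transcript of another gene, whereas 36.2% of those of the X-linked one did, most of them in the transcript named Gm2223. Both copies were read in every library. Eif2s3x had 172 and 202 CPM in Th9 cells and 189 and 171 CPM in Th9+TLA1 cells, and Eif2s3y had 156 and 128 CPM in Th9 cells and 128 and 111 CPM in Th9+TLA1 cells. The X-linked values overlapped between the groups, and the Y-linked ones were lower with TLA1 in deposited CPM by a small margin, overlapped after TMM scaling and did not pass (log2 fold change -0.16 ± 0.20 SE, limma adjusted p = 0.754). Of the reads of both genes, the Y-linked copy gave 47.5% and 38.8% in Th9 cells and 40.3% and 39.3% with TLA1. Per kilobase of transcript, it gave 64.3% and 55.7% of the gamma subunit level of Th9 cells and 57.3% and 56.2% with TLA1. Th9 replicate 1 had the largest Y-linked share of the 4 libraries on both scales. The share per kilobase rests on the transcript lengths used, 3647 bases for Eif2s3x and 1836 for Eif2s3y. The part of the shared stretches of Eif2s3x in these shares was not tested.

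eIF2B recharges eIF2 with GTP, and its 5 subunit genes had a median log2 fold change of 0.0060, with every interval within 2-fold. Eif2b2 had 115 and 108 CPM without TLA1 and 127 and 127 CPM with it, the 1 subunit gene whose groups did not overlap (log2 fold change 0.28 ± 0.20 SE, limma adjusted p = 0.519). Eif2b5, which encodes the catalytic subunit and had the highest CPM of the 5, had 251 and 254 CPM without TLA1 and 188 and 252 CPM with it. Its Th9+TLA1 replicate 1 was lower than the other libraries, which were within a few CPM of each other (log2 fold change -0.13 ± 0.19 SE, limma adjusted p = 0.805). Eif2b4 had 56.2 and 55.9 CPM without TLA1 and 74.5 and 47.1 CPM with it, the 2 Th9+TLA1 libraries lying on either side of the Th9 ones (log2 fold change 0.17 ± 0.28 SE, limma adjusted p = 0.822). Eif2b1 had 97.2 and 78.0 CPM without TLA1 and 66.8 and 90.5 CPM with it, with overlapping groups, and Eif2b3 ranged from 55.5 to 70.8 CPM over the libraries. Eif2a and Eif2d encode factors that can deliver initiator tRNA without eIF2. Eif2a had 181 and 207 CPM without TLA1 and 258 and 190.2 CPM with it and Eif2d 86.6 and 69.5 CPM without TLA1 and 78.2 and 65.2 CPM with it, both with overlapping groups (limma adjusted p = 0.538 and 0.974).

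eIF3 is the largest initiation factor, a ring of subunits that keeps the ribosomal subunits apart and recruits the mRNA. Of its 14 genes 12 were tested, and 11 of the 12 intervals lay within 2-fold. The median log2 fold change was 0.14, with 11 values above 0 and 1 below, where 5054 of all 10324 tested genes were above 0. Of the 12, 8 were above 0 with total count scaling and 9 with the length and GC trend removed. It was also 9 without Th9+TLA1 replicate 2 and 9 without Th9 replicate 1, where the median was 0.066. Eif3i (Entrez 54709, chr4:129591974-129600648), which encodes a WD-repeat subunit, had the smallest p of all translation factors. It was read at 192 and 218 CPM in Th9 cells and 303 and 294 CPM in Th9+TLA1 cells, or 205 ± 18.5 and 298 ± 6.61 CPM (mean ± SD, n = 2 per group). Both Th9+TLA1 values lay above both Th9 values, a fitted 1.55-fold difference with a 95% interval of 1.18-fold to 2.04-fold (log2 fold change 0.63 ± 0.18 SE, limma adjusted p = 0.127). Its adjusted p stayed above the threshold in all 16 alternative settings.

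Other eIF3 subunits differed less, or differed mainly from Th9 replicate 1. Eif3f, which encodes a subunit with an MPN domain, had 405 and 601 CPM in Th9 cells and 696 and 614 CPM in Th9+TLA1 cells (log2 fold change 0.50 ± 0.22 SE, limma adjusted p = 0.276). Eif3h, its MPN partner, had 425 and 554 CPM in Th9 cells and 631 and 549 CPM in Th9+TLA1 cells (log2 fold change 0.37 ± 0.20 SE, limma adjusted p = 0.374). In both genes Th9 replicate 1 was the lowest library and Th9 replicate 2 was close to Th9+TLA1 replicate 2. Without Th9 replicate 1 the log2 fold change was 0.16 for Eif3f and 0.13 for Eif3h, and without Th9 replicate 2 it was 0.84 and 0.62. Eif3a, the gene of the large scaffold subunit, had 625 and 504 CPM without TLA1 and 658 and 607 CPM with it (log2 fold change 0.26 ± 0.17 SE, limma adjusted p = 0.484). Eif3b, the scaffold of the peripheral arm, was the 1 subunit gene with a lower fitted level, at 725 and 629.9 CPM without TLA1 and 569 and 557 CPM with it (adjusted p = 0.666, limma). Eif3c, Eif3d, Eif3e, Eif3g, Eif3k, Eif3l and Eif3m had log2 fold changes between 0.0093 and 0.14.

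Levels can be compared between subunits only per length, here CPM per kilobase of the longest protein-coding transcript. On that scale the 12 tested subunits spanned 4.58-fold, from 91.1 CPM per kilobase for Eif3m to 417 for Eif3h, with a median of 184. Eif3f (230.3), Eif3i (224), Eif3e (214) and Eif3b (211) followed Eif3h, and these neighbours differed by less than the spread between libraries. The lowest were Eif3a (117), Eif3k (113) and Eif3m. Eif3j1 and Eif3j2, near copies of each other that encode the loosely bound j subunit, were at 0 in all 4 libraries. Of the 50-base stretches of the Eif3m transcript 40.0% also occurred in a transcript of another gene. For Eif3h, the highest subunit, the share was 26.2%, and for Eif3e it was 22.0%, so these levels are less certain. For Eif3j1 and Eif3j2 it was 54.8% and 91.8%. No source used here says how reads with more than 1 match were counted, so the 0 does not show that the subunit was not transcribed.

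**Figure D3:**
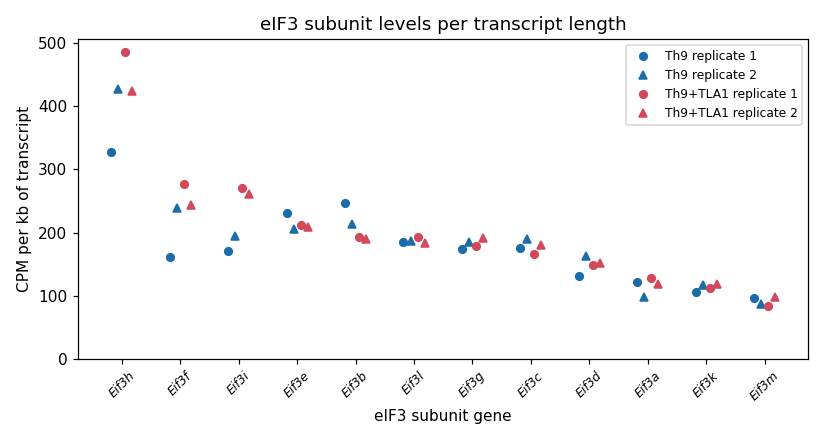
CPM per kilobase of transcript for each tested eIF3 subunit gene, ordered by its mean, with 1 symbol per library (blue for Th9, red for Th9+TLA1). Eif3h lies above the others, and Th9 replicate 1 is the lowest library for Eif3h, Eif3f and Eif3i.

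Among the cap and helicase factors, the 3 genes of the eIF4G scaffold family were lower in both Th9+TLA1 libraries than in either Th9 library. Of all tested genes, 29% were lower in this way in deposited CPM and 23.6% after TMM scaling. Eif4g1 (Entrez 208643, chr16:20672720-20692883) encodes the scaffold that joins the cap-binding protein, the helicase and eIF3. It had 405 and 314 CPM in Th9 cells and 230.2 and 231 CPM in Th9+TLA1 cells, or 359 ± 64.5 and 231 ± 0.822 CPM (mean ± SD, n = 2 per group). The difference, a log2 fold change of -0.53 ± 0.18 (SE) with a 95% interval of -0.93 to -0.14, did not pass (limma adjusted p = 0.173), and it ranged from -0.66 to -0.40 when 1 library at a time was left out. Eif4g2 encodes a scaffold that lacks the part that holds the cap-binding protein. It had the highest CPM of the initiation factors, at 2147 and 2066 CPM in Th9 cells and 1657 and 1612 CPM in Th9+TLA1 cells (log2 fold change -0.27 ± 0.18 SE, limma adjusted p = 0.476). Eif4g3 had 133 and 78.6 CPM in Th9 cells and 73.2 and 74.6 CPM in Th9+TLA1 cells, where Th9 replicate 1 stood above 3 similar libraries (log2 fold change -0.37 ± 0.25 SE, limma adjusted p = 0.499).

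The partners of the scaffold did not share 1 direction. Eif4e, the cap-binding protein gene, had 219 and 199.5 CPM in Th9 cells and 211 and 171 CPM in Th9+TLA1 cells (log2 fold change -0.044 ± 0.19 SE, limma adjusted p = 0.945). Eif4a1, the main helicase gene, had 211 and 222 CPM in Th9 cells and 227 and 208 CPM in Th9+TLA1 cells, with overlapping groups (log2 fold change 0.093 ± 0.18 SE, limma adjusted p = 0.848); 65.3% of the 50-base stretches of its transcript also occurred in a transcript of another gene, so its level is uncertain. Eif4a2, the second helicase gene, was the most variable within a group, at 305 and 146 CPM without TLA1 and 255 and 212 CPM with it. Eif4a3, which belongs to the exon junction complex and not to the cap complex, had 77.9 and 78.6 CPM without TLA1 and 45.6 and 52.9 CPM with it (log2 fold change -0.57 ± 0.24 SE, limma adjusted p = 0.266). Of the 50-base stretches of the Eif4a3 transcript, 24.4% also occurred in a transcript of another gene, so its level is less certain. Eif4b, a helper of the helicase, had 623 and 497 CPM without TLA1 and 467 and 453 CPM with it (adjusted p = 0.655, limma), and Eif4h, a second helper, had 537 and 458 CPM without TLA1 and 441 and 453 CPM with it (adjusted p = 0.906). Eif4e2, which encodes a cap-binding homologue known mainly as a repressor, had 147 and 143 CPM without TLA1 and 175 and 165 CPM with it (log2 fold change 0.31 ± 0.19 SE, limma adjusted p = 0.434). Over the 11 tested cap and helicase genes the median log2 fold change was -0.059, and it was -0.025 without Th9 replicate 1, -0.24 without Th9 replicate 2 and -0.20 without Th9+TLA1 replicate 1. In deposited CPM the groups did not overlap for 7 of the 11, 6 of them lower with TLA1, beside 48.1% of all tested genes and 29% lower. After TMM scaling 5 of the 11 were lower and 2 higher, beside 23.6% and 23.7% of all tested genes. Eif4e3, another cap-binding homologue, stayed between 90.3 and 92.8 CPM, and Eif4e1b was at 0 in all 4 libraries.

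The 4 genes of proteins that bind and regulate eIF4E differed in sign, and none passed. Eif4ebp1 encodes the repressor 4E-BP1, which mTORC1 phosphorylates to release eIF4E. It had 133 and 186 CPM in Th9 cells and 210.4 and 219 CPM in Th9+TLA1 cells, Th9 replicate 1 being the lowest library (log2 fold change 0.54 ± 0.22 SE, limma adjusted p = 0.239). Leaving out Th9 replicate 1 brought its log2 fold change to 0.25, and leaving out Th9 replicate 2 brought it to 0.83. Eif4enif1 encodes 4E-T, which carries eIF4E into the nucleus and into sites of mRNA storage. It had 370.4 and 212 CPM in Th9 cells and 138 and 188 CPM in Th9+TLA1 cells, the largest lower difference among the factors (log2 fold change -0.71 ± 0.25 SE, limma adjusted p = 0.188). Th9 replicate 1 was far above the other libraries there, and without it the log2 fold change was -0.35. The locus of Eif4enif1 overlaps that of Sfi1, and the library kit does not mark strand. Of the 50-base stretches of the Eif4enif1 transcript, 0% occurred on either strand in a transcript of another gene. Whether reads of Sfi1 were counted for Eif4enif1 was not tested. The other repressor genes were low: Eif4ebp2 had 26.7 and 17.0 CPM without TLA1 and 19.5 and 24.3 CPM with it, and Eif4ebp3 had 11.6 and 6.63 CPM without TLA1 and 4.36 and 7.46 CPM with it (limma adjusted p = 0.923 and 0.748), and 65.5% of the 50-base stretches of Eif4ebp3 occurred in another transcript.

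Factors of subunit joining and of the first peptide bonds included the largest higher fold change. Eif5a encodes the hypusine-bearing factor that helps ribosomes through difficult peptide bonds, and its paralogue Eif5a2 is usually far less expressed. Eif5a2 had 62.4 and 85.9 CPM in Th9 cells and 101 and 132 CPM in Th9+TLA1 cells, with both Th9+TLA1 libraries above both Th9 libraries. The fitted 1.67-fold difference had a 95% interval of 1.14-fold to 2.44-fold (log2 fold change 0.74 ± 0.25 SE, limma adjusted p = 0.172). Its log2 fold change was 0.47 when Th9 replicate 1 was left out. Eif5a had 1150.3 and 1238 CPM in Th9 cells and 1092 and 1182 CPM in Th9+TLA1 cells, with overlapping groups and a fold within 0.778-fold to 1.32-fold at 95%. Eif6, which encodes a factor that keeps the large subunit from joining too early, had 188 and 187 CPM without TLA1 and 209 and 219.7 CPM with it. Its groups did not overlap, and replicates of 1 group were within a few percent of each other (log2 fold change 0.29 ± 0.18 SE, limma adjusted p = 0.457). Eif5, the gene of the GTPase activator of eIF2, had 621 and 408 CPM without TLA1 and 414 and 433 CPM with it, and Eif5b, the subunit joining GTPase gene, had 125 and 62.2 CPM without TLA1 and 84.2 and 57.8 CPM with it. In both, Th9 replicate 1 was above the other 3 libraries (limma adjusted p = 0.750 and 0.750). The transcript of Eif5b overlaps Rev1.

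Eef1a1 and Eef2 had the highest CPM of all the factors. The 5 tested elongation genes all had a higher fitted mean with TLA1, in each of the 16 alternative settings as well, and none passed the test. Of all 10324 tested genes, 5054 had a higher fitted mean with TLA1. Eef1a1 (Entrez 13627, chr9:78478453-78481724), which encodes the carrier of aminoacyl-tRNA, had 8782 and 11809.9 CPM in Th9 cells and 13417 and 13519.8 CPM in Th9+TLA1 cells. Eef2 (Entrez 13629, chr10:81176631-81182509), which encodes the translocase, had 2642 and 3411 CPM in Th9 cells and 3804 and 3682 CPM in Th9+TLA1 cells. In both genes the Th9+TLA1 libraries lay close together and above both Th9 libraries, and Th9 replicate 1 was well below Th9 replicate 2. The log2 fold changes of 0.50 ± 0.26 and 0.41 ± 0.21 (SE) did not pass (limma adjusted p = 0.369 and 0.367). Eef1b2 and Eef1d encode exchange factors that reload eEF1A with GTP, and Eef1g their structural partner. Eef1b2 had 329 and 401 CPM in Th9 cells and 485 and 413 CPM in Th9+TLA1 cells (log2 fold change 0.39 ± 0.19 SE, limma adjusted p = 0.329). Eef1g had 226 and 326 CPM in Th9 cells and 333 and 325 CPM in Th9+TLA1 cells, 3 libraries being alike and Th9 replicate 1 lower (log2 fold change 0.37 ± 0.21 SE, limma adjusted p = 0.418). Eef1d had 111 and 134 CPM in Th9 cells and 145 and 133 CPM in Th9+TLA1 cells (log2 fold change 0.28 ± 0.21 SE, limma adjusted p = 0.547).

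Th9 replicate 1 was the lowest of the 4 libraries for all 5 elongation genes, where it was the lowest for 22.3% of all tested genes. Relative to each gene's mean over the 4 libraries, the median elongation gene lay at -0.43 in Th9 replicate 1, 0.022 in Th9 replicate 2, and 0.24 and 0.16 in the Th9+TLA1 libraries (log2). Their median log2 fold change of 0.39 became 0.18 when Th9 replicate 1 was left out and 0.65 when Th9 replicate 2 was. The summed T cell marker level given above was also lowest in Th9 replicate 1, and its part in the elongation result was not tested. The 100 genes with the most reads took 15.8% of reads in Th9 replicate 1 and 18.4% in Th9 replicate 2. In the Th9+TLA1 libraries they took 20.1% and 19.4%. The part of that difference in the elongation result was not tested either. Of the 50-base stretches of the Eef1a1 and Eef1g transcripts, 60.6% and 64.3% also occurred in a transcript of another gene. Eef1a2, the copy known from neurons and muscle, had 2 reads in Th9+TLA1 replicate 2 and 0 elsewhere.

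**Figure D4:**
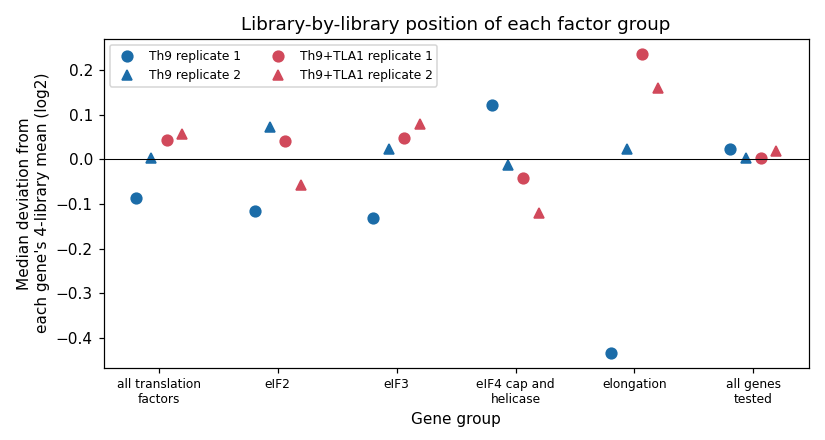
Median deviation of the tested genes of each group from their own 4-library means on the log2 scale after TMM scaling, with 1 symbol per library (blue for Th9, red for Th9+TLA1, circles for replicate 1 and triangles for replicate 2). Th9 replicate 1 lies at -0.43 for the elongation factors and at 0.12 for the cap and helicase factors, while all genes together stay near 0.

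Messenger RNAs of elongation factors are known to begin with a run of pyrimidines, the terminal oligopyrimidine tract, through which mTORC1 and LARP1 set their translation. Around the RefSeq start of GRCm38.p6 a run of at least 6 C or T bases beginning with C was searched on the sense strand, from 5 bases before the start to 25 from it on. The windows of the main elongation genes, of Eif3f and of Eif4g1 are shown, with such runs in capitals.
Eef1a1 (chr9:78481700-78481729, - strand): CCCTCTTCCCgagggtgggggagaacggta
Eef2 (chr10:81176626-81176655, + strand): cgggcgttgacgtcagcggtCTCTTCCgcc
Eef1b2 (chr1:63176826-63176855, + strand): gttccgccggaagtagccgaggccttgcgt
Eif3f (chr7:108934410-108934439, + strand): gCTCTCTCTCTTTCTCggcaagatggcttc
Eif4g1 (chr16:20672722-20672751, + strand): gctccgCCCTCTgcgccggtcacgtggggc
Eef1a1, Eef2 and Eif3f, which had higher means with TLA1, held a run, and so did Eif4g1, which had a lower one, whereas the window of Eef1b2 held none. Starts were listed for 49 of the 65 genes, and 27.0% of their 63 starts held a run, beside 20.1% of all 32851 starts in the table (20.6% and 25.03% on the other strand). The 15 tested factors with a run had a median log2 fold change of -0.00055 and the 32 without one 0.051. A run in these windows is a match of letters, and annotated starts can lie some bases from the true ones. The search was chosen after the values had been seen.

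No enzyme or partner of the elongation factors passed the test either. Eef2k, the kinase that inactivates eEF2, had 16.9 to 34.9 CPM over the libraries. Eef2kmt, a methyltransferase of eEF2, had 30.9 and 29.99 CPM without TLA1 and 19.1 and 20.4 CPM with it and overlaps Alg1 (log2 fold change -0.51 ± 0.35 SE, limma adjusted p = 0.497). Eef1akmt1 and Eef1akmt2, methyltransferases of eEF1A, had 49.5 and 36.0 CPM without TLA1 and 20.1 and 36.7 CPM with it, and 55.4 and 32.8 CPM without TLA1 and 31.5 and 38.0 CPM with it, respectively. Eef1aknmt, another such enzyme, had 28.9 and 42.6 CPM without TLA1 and 35.9 and 38.3 CPM with it. Eef1e1, which encodes a scaffold of the tRNA synthetase complex, had 139 and 172 CPM without TLA1 and 139 and 151 CPM with it, and its fitted change was near 0 (95% interval -0.45 to 0.45). Eif4a3l1, a copy of Eif4a3, had 13.4 and 17.7 CPM without TLA1 and 10.7 and 12.98 CPM with it, and 48.9% of its 50-base stretches occurred in other transcripts. Eef1akmt3 was at 0 throughout.

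The signalling genes that act on these factors held no called gene in the limma test. The counts at an unadjusted p under 0.05 that follow stand beside 16.7% of all tested genes, 8.15% of them lower. Of 9 tested genes of the eIF2 kinases and the stress response, 1 had an unadjusted p under 0.05. That was Ppp1r15b, whose product directs a phosphatase to eIF2, at 159.8 and 168 CPM without TLA1 and 98.3 and 120.4 CPM with it (log2 fold change -0.49 ± 0.20 SE, limma adjusted p = 0.253). The phosphatase gene Ppp1ca, the most abundant of the list, had 859 and 934 CPM without TLA1 and 1011 and 919.8 CPM with it. Of 14 tested genes of mTORC1 and MNK signalling, 4 had an unadjusted p under 0.05, all lower with TLA1. Rps6kb1, the gene of the S6 kinase, had 148 and 95.4 CPM in Th9 cells and 60.7 and 53.9 CPM in Th9+TLA1 cells (log2 fold change -0.95 ± 0.25 SE, limma adjusted p = 0.100); DESeq2 alone among the settings called it, with an adjusted p of 0.0377. Rheb, which encodes the GTPase that activates mTORC1, Rptor and Mlst8, the genes of its subunits, were the other genes, named after their values were seen. Rheb had 212 and 167 CPM without TLA1 and 119 and 126 CPM with it (log2 fold change -0.52), and Rptor had 53.2 and 33.2 CPM without TLA1 and 19.8 and 22.1 CPM with it (-0.88). Mlst8 had 39.3 and 39.5 CPM without TLA1 and 8.06 and 30.2 CPM with it, so its log2 fold change of -1.18 rested on Th9+TLA1 replicate 1 and was -0.29 without it. Mtor itself had 87.3 and 68.8 CPM without TLA1 and 60.1 and 91.5 CPM with it, also named after its values were seen, and Rps6, the most abundant of the list and the substrate of the kinase, had 938 and 1002 CPM without TLA1 and 1215 and 1078 CPM with it (log2 fold change 0.33 ± 0.18 SE, limma adjusted p = 0.378). Of 5 tested genes of poly(A)-binding proteins, which link the end of the mRNA to eIF4G, and of proteins that interact with them, none had an unadjusted p under 0.05. Pabpc1, the gene of that list with the highest mean CPM, had 241 and 377 CPM without TLA1 and 342 and 341 CPM with it. Th9 replicate 1 was the lowest library for Pabpc1. Paip1, which encodes a partner of the poly(A)-binding protein, had 31.4 and 27.8 CPM without TLA1 and 10.1 and 23.0 CPM with it (log2 fold change -0.82 ± 0.43 SE, limma adjusted p = 0.373).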

How the data were processed

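Per the labels' protocols, libraries were made with a SMARTer low-input cDNA kit, which does not mark strand, and were read on an Ion Torrent instrument. HTSeq 0.5.4, edgeR and mm10 are named in the submitters' processing notes, without their role; aligner and annotation: not given in the sources used here. CPM were deposited by the authors, 1 file per library, scaled to the same total in each. All non-zero values (100%) were whole multiples of 1 read within a tolerance of 0.01 read, and these recovered reads, which are amplified and not independent molecules, were used for filtering and for count tests.

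RefSeq symbols and coordinates of GRCm38.p6, the assembly of mm10, matched 23383 of 23480 identifiers. The loci of 28 of the 65 genes overlapped that of another RefSeq gene, and not every overlap is named above. Genes kept by filterByExpr (minimum count 10) were fitted with limma 3.58.1 (lmFit, eBayes with trend) on log2(CPM / TMM factor + 1), with the group alone as term; fold changes are on that scale and understate those of low genes. TMM factors lay between 0.964 and 1.06. P-values were adjusted over all 10324 tested genes (Benjamini-Hochberg), and calls needed an adjusted p under 0.05. The fit was tested on simulated data with 200 changed genes among 10324. It called 27.5% of the 2-fold changes and 77.2% of the 4-fold changes, with 3 false calls. Most changes of 2-fold were thus missed there. On the recovered reads edgeR 4.0.16, the count test, called 110 genes; DESeq2 1.42.0 and limma voom were further alternatives. R was 4.3.3 and Python 3.11.15.

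The members and gene lists were chosen with earlier results of these data known. Values by library are given for the 4 tested genes of each complex with the smallest p, for its most abundant gene, and for untested genes with any read; for other lists, for called genes or else for the most abundant one and the one with the smallest p. Most abundant here means the highest mean CPM, without regard to transcript length. Genes named beyond that were chosen after their values were seen. Shared sequence was counted as 50-base stretches of the longest protein-coding GENCODE M21 transcript that occur, on either strand, in a transcript of another gene. The share was over 20% for 15 of the 65 genes, among them Eif1 (31.6%), Eif2s2 (27.8%), Eef2kmt (26.1%) and Eif4a3 (24.4%). Levels of such genes are less certain. Protein sequences were not used here.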

Additional observations from a re-analysis of the deposited data

How the results depend on the processing

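In all 16 alternative settings 0 translation factors were called, with between 2 (without Th9+TLA1 replicate 1) and 13 (without Th9 replicate 2) at an unadjusted p under 0.05, and the lowest adjusted p of any factor was 0.0687, without Th9 replicate 2. The 60 tested factors gave 907 fold changes in the same direction as reported and 51 reversed, in 26 genes, none of which had passed. The count of all called genes, 120, was 73 with total count scaling, 33 without a filter and 275 with DESeq2 (higher 52, 25 and 185). Lower genes, 27, numbered 43 with upper quartile scaling, 44 with a pseudocount of 5 CPM, 8 without a filter and 90 with DESeq2. Leaving out 1 library gave 20 to 155 called genes, 20 to 87 higher (39, 20, 87 and 49 without Th9 replicate 1, Th9 replicate 2, Th9+TLA1 replicate 1 and Th9+TLA1 replicate 2) and 0 to 68 lower (3, 0, 68 and 46). With the replicate number as a block 223 genes were called, 147 higher and 76 lower, none of them a factor; no label says that a number marks a shared batch, and same-numbered libraries did not deviate together (correlation across genes -0.011), so the numbers were not used as pairs. A code that the deposited names of both replicate 2 libraries share is not explained by the labels, and whether these came from 1 experiment was not tested.

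Total count scaling put the median of all genes at -0.101, and the medians became -0.053 for all factors, 0.044 for eIF3 and -0.15 for the cap and helicase factors. With the length and GC trend removed the eIF3 median was 0.033; the cause was not tested. Leaving out 1 library gave medians of 0.042 to 0.13 for all factors, -0.095 to 0.14 for eIF2, 0.066 to 0.20 for eIF3, -0.24 to -0.025 for the cap and helicase factors and 0.18 to 0.65 for elongation. Signs turned with total count scaling for Eif1ax (-0.085), Eif2b3 (-0.085), Eif2s3x (-0.054), Eif3c (-0.083), Eif3e (-0.052), Eif3m (-0.011), Eif5a (-0.071) and Mtor (-0.063). They turned with the length and GC trend removed for Eef1e1 (0.029), Eif1a (0.021), Eif3g (-0.080), Eif3k (-0.063), Eif4e (0.094) and Eif5a (-0.15). They also turned for Eef1e1 with RLE scaling (0.0024) and voom (0.013), for Eif1ax with edgeR (-0.0078) and DESeq2 (-0.0064), and for Eif2b3 with a minimum count of 50 (-0.00090). With 1 library left out the log2 fold change ran from -0.52 to 0.12 for Eef1akmt2, -0.15 to 0.49 for Eef1aknmt, -0.20 to 0.21 for Eef1e1, -0.61 to 0.41 for Eef2k, -0.24 to 0.084 for Eif1a, -0.22 to 0.24 for Eif1ax and -0.28 to 0.14 for Eif2b1. It ran from -0.17 to 0.19 for Eif2b3, -0.16 to 0.50 for Eif2b4, -0.33 to 0.079 for Eif2b5, -0.16 to 0.11 for Eif2d, -0.17 to 0.062 for Eif2s2, -0.13 to 0.21 for Eif2s3x and -0.097 to 0.12 for Eif3c. The range was -0.071 to 0.35 for Eif3d, -0.016 to 0.18 for Eif3m, -0.24 to 0.71 for Eif4a2, -0.20 to 0.11 for Eif4e, -0.14 to 0.38 for Eif4ebp2, -0.12 to 0.0078 for Eif4h and -0.40 to 0.099 for Eif5. It was -0.079 to 0.13 for Eif5a, -0.69 to 0.21 for Eif5b, -0.39 to 0.15 for Gfm1, -0.27 to 0.32 for Mtor and -0.097 to 0.65 for Pabpc1. With 2 libraries a group, a factor that missed the threshold may still differ.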

Other observations

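Steps around initiation and elongation also held no called gene in the limma test. Of 8 tested genes of termination and ribosome recycling, 1 had an unadjusted p under 0.05, beside 16.7% of all tested genes. Abce1, which encodes the ATPase that splits ribosomes after a stop codon, had 387 and 375 CPM without TLA1 and 242 and 273 CPM with it (log2 fold change -0.47 ± 0.17 SE, limma adjusted p = 0.206). Etf1, the gene of the release factor eRF1, had the highest mean CPM of that list, at 426 and 376 CPM without TLA1 and 359.8 and 351 CPM with it. The enzymes that make hypusine on eIF5A and diphthamide on eEF2 numbered 9 tested genes, none with an unadjusted p under 0.05. Dnajc24, which acts in diphthamide synthesis, had the smallest p, at 22.3 and 24.0 CPM without TLA1 and 29.9 and 34.1 CPM with it (log2 fold change 0.54 ± 0.34 SE, limma adjusted p = 0.457), and Dph5, the most abundant, had 58.1 and 54.9 CPM without TLA1 and 66.5 and 67.2 CPM with it.

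Mitochondria use translation factors of their own, and of 9 tested genes none had an unadjusted p under 0.05. Tufm, which encodes the mitochondrial counterpart of eEF1A, had 23.3 and 44.8 CPM without TLA1 and 46.0 and 48.4 CPM with it (log2 fold change 0.62 ± 0.35 SE, limma adjusted p = 0.409). Th9 replicate 1 was the lowest library for Tufm, as it was for the 5 cytosolic elongation genes. Gfm1, a mitochondrial counterpart of eEF2, had the highest mean CPM of that list. It had 134 and 108 CPM without TLA1 and 85.6 and 126 CPM with it, with overlapping groups.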
